A study of Drosophila melanogaster with 6 samples.

Results

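Homozygous fio larvae that carried an added element written [U6+] (rescue) were compared with homozygous fio larvae without it (mutant) across all genes of the deposited count table. These are 4 of the 6 libraries of the study, 2 a side, chosen by their labels, and 11866 of the 17908 genes in the table had enough counts to be tested. The mutant larvae are labelled fiomut/fiomut ;U6mut/U6+, and the rescue larvae fiomut ,[U6+]/fiomut ;U6mut/U6+, so both groups are homozygous for fiomut and both carry U6mut over U6+. The remaining 2 libraries are the control larvae, labelled fiomut/cyo and abbreviated wt, which carry fiomut over the CyO balancer and name no U6 allele. The control is therefore not a wild type, and it differs from the rescue in the balancer and in the U6 alleles as well as in fio. All larvae were kept at room temperature and frozen in trizol, and polyadenylated RNA of whole larvae was sequenced. The labels give no larval stage, sex, number of animals or pooling, do not say what kind of mutation fiomut or U6mut is, and do not describe the [U6+] element, which is read here as an added U6 copy.

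METTL16 is an m6A methyltransferase that modifies an adenosine in the ACAGA box of U6 snRNA, the stretch of the spliceosomal RNA that pairs with the 5′ splice site of introns. In mammals it also methylates hairpins in the transcript of the S-adenosylmethionine synthetase gene MAT2A and so ties that transcript to the supply of the methyl donor. The series title names METTL16, and fio is taken here to be a mutation of its gene, CG7544, which the labels do not state. The question addressed by this comparison is what an added U6 element changes in larvae homozygous for the fio mutation.

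The added element went with higher transcripts of salivary glue proteins, small heat shock proteins and Hsp70, ecdysone-response genes and imaginal disc regulators. It went with lower transcripts of digestive proteases, sugar-cleaving enzymes, cytochrome P450s, UDP-glycosyltransferases and proton pump subunits. Tanning enzymes went both ways, with 8 of 20 called higher and 4 lower. In all, 903 genes (7.61% of those tested) were called higher in rescue and 1005 (8.47%) lower at an adjusted p under 0.05 by edgeR's quasi-likelihood test. Of these, 732 higher and 885 lower genes differed at least 2-fold, and 97 and 62 at least 16-fold. The called-higher genes together rose from 28882 CPM (counts per 1e+06 counts of a library scaled by TMM, here the mean of 2 libraries) in mutant to 129666 CPM in rescue, and the called-lower genes together fell from 160905 to 41949 CPM. The median log2 fold change over all genes tested was 0.00. In every called gene both rescue libraries lay on 1 side of both mutant libraries, as they also did in 33.8% of all genes tested with rescue higher and in 33.1% with rescue lower. The number of calls depended on single libraries: without mutant 1 the test called 116 genes higher and 284 lower, without mutant 2 it called 196 and 436, without rescue 1 it called 375 and 561, and without rescue 2 it called 276 and 363.

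**Figure D1:**
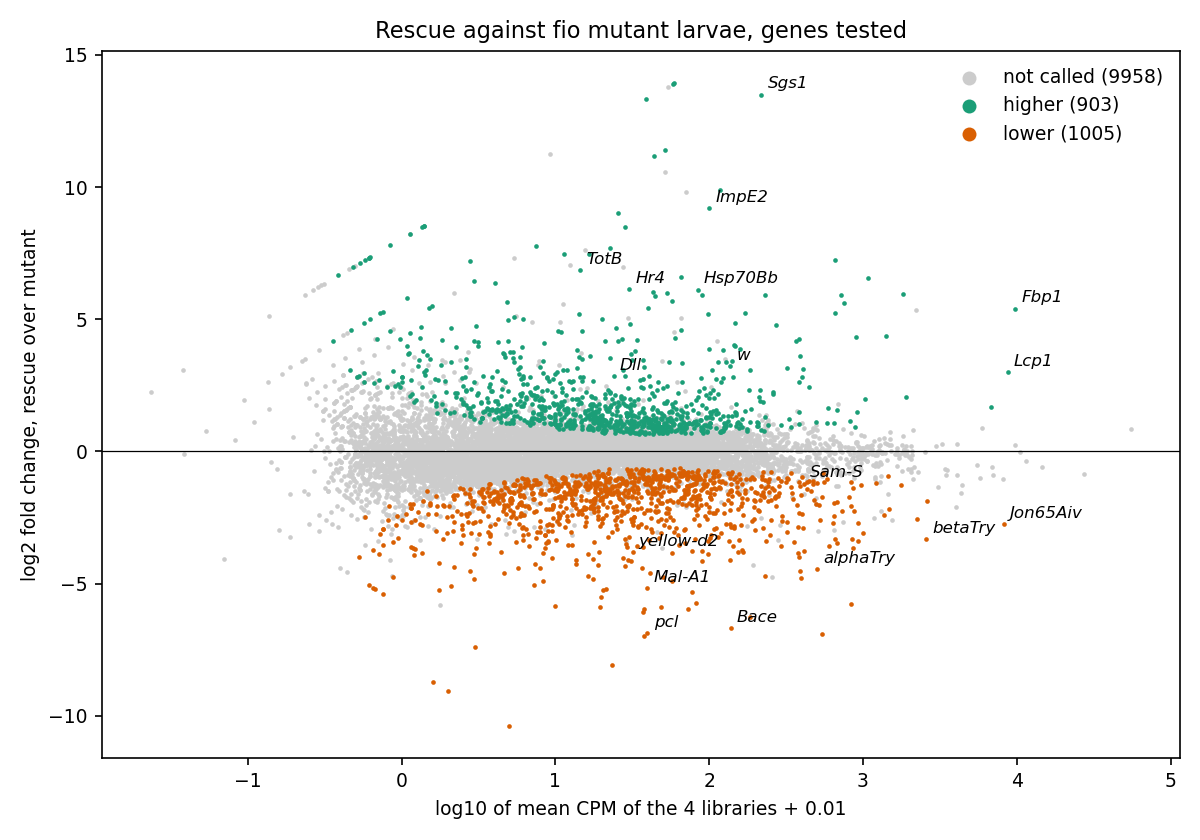
Log2 fold change of rescue over mutant (vertical axis) against the log10 of the mean CPM of the 4 libraries (horizontal axis) for each of the 11866 genes tested. Green points are the 903 genes called higher and orange points the 1005 called lower; the glue gene Sgs1 and the ecdysone-induced ImpE2 lie at the top, the proteases Bace and pcl at the bottom. Values near the upper and lower edge belong to genes with almost no counts on 1 side and depend on the prior count.

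Total counts lay between 15983161 and 17847161 per library. The large ribosomal RNA of the mitochondrion made up 4.56 and 3.49% of all counts in mutant, 8.22 and 7.40% in rescue, and 11.6 and 8.62% in control. Across genes, log2 CPM correlated at 0.971 between the mutant libraries and at 0.973 between the rescue libraries, and at 0.873 to 0.897 between a mutant and a rescue library. Whether the replicates are separate animals is not stated in the labels, so each p-value reflects no more than the spread among the libraries at hand, and that spread may be technical. In whole larvae, fewer cells of a type and less RNA per cell cannot be told apart.

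CG7544, which the RefSeq gene table names METTL16 (chromosome 2R, 15147860 to 15149709, positions as deposited, which match Release 6), stood at 3.15 and 1.49 CPM in mutant, 1.25 and 2.51 CPM in rescue and 3.08 and 2.06 CPM in control. The groups overlapped, and the gene differed between rescue and mutant by a log2 fold change of -0.30 (SE 0.54, adjusted p = 0.729). The 3 U6 snRNA genes gave almost no counts in these libraries of polyadenylated RNA: 5 counts in mutant and 0 in rescue for snRNA:U6:96Aa, and 0 in every library for snRNA:U6:96Ab and snRNA:U6:96Ac. The level of U6, and whether the added element was transcribed, was therefore not measured. Sam-S, which encodes S-adenosylmethionine synthetase (chromosome 2L, 106903 to 114432), stood at 675 and 474 CPM in mutant, 249 and 244 CPM in rescue and 272 and 249 CPM in control. Both rescue libraries lay below both mutant libraries and beside the control libraries. Its log2 fold change was -1.22 (SE 0.25) with an adjusted p of 0.0208, and across 13 alternative settings the adjusted p ran from 1.76e-05 to 0.129, with the call lost without mutant 1, rescue 1 or rescue 2. It was the only called gene among 17 of the SAM and methionine cycle, whose median was -0.08.

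Few splicing genes were called. Of 32 core spliceosome genes 1 was called higher and none lower, against 7.61 and 8.47% of all genes; the gene is SmD1, an Sm ring protein, at 16.03 and 15.6 CPM in mutant and 26.4 and 25.3 CPM in rescue (log2 fold change 0.71, SE 0.18, adjusted p = 0.0425), and it lost the call when any of the 4 libraries was left out, with upper-quartile factors and with no filter. The list's median was 0.37, and 28 of its 32 genes lay above 0. At an unadjusted p under 0.05, 11 of the 32 were higher and 0 lower. Over all 11866 genes tested, 1943 were higher and 2009 lower at that threshold. In 23 of the 32 both rescue libraries lay above both mutant libraries (33.8% of all genes did), and DESeq2 called 3 higher. None of 12 genes for U6 snRNP assembly and partners was called (median 0.03, with 0 higher and 0 lower at an unadjusted p under 0.05 and 0 called by DESeq2). None of 9 m6A writers and readers was called either; all lay above 0, with a median of 0.49 and 4 at an unadjusted p under 0.05, and DESeq2 called 2 of them higher. None of 9 genes for nonsense-mediated decay and its known targets was called (median -0.09, with 1 higher and 0 lower at an unadjusted p under 0.05), while DESeq2 called 1 higher. Their summed level, which weighs abundant genes most, did not overlap between the groups. It stood at 5323 and 3913 CPM in mutant, 3609 and 2628 CPM in rescue and 995 and 906 CPM in control.

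At an adjusted p under 0.05, genes with and without introns were called about equally often. Among 1552 tested protein-coding genes without an intron, 7.28% were called higher and 8.51% lower; among 2423 genes with 6 or more introns the shares were 7.64 and 8.21%. At an unadjusted p under 0.05 the intronless genes leaned lower, with 206 of 1552 higher and 328 lower. Of the 2423 genes with 6 or more introns 436 were higher and 375 lower. Over all 11866 genes tested the counts were 1943 and 2009. Both rescue libraries lay above both mutant libraries in 385 intronless genes and below in 672, and with 6 or more introns in 883 and 696. Over all genes tested the shares were 33.8% above and 33.1% below. The median log2 fold change was -0.27 in intronless genes, 0.00 with 1 to 2 introns, 0.03 with 3 to 5 and 0.07 with 6 or more. The low median of intronless genes held without each of the 4 libraries in turn (-0.22 to -0.28), but that of the genes with 6 or more introns turned to -0.05 without mutant 1 and to 0.21 without mutant 2.

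The genes with the smallest p in each direction included enzymes, secreted proteins, heat shock proteins and membrane proteins, and no splicing genes. Sgs1, a glue protein that the larval salivary gland secretes to fix the pupa (chromosome 2L, 4937409 to 4941423), had 0 and 1 count in mutant 1 and mutant 2, and 518 and 353 CPM in rescue, beside 327 and 541 CPM in control. The count ratio of rescue to mutant was 14442 (exact 95% interval 2592 to 570471, counting error only), and the adjusted p was 0.000516. Pu, GTP cyclohydrolase, which makes the pterin cofactor of tyrosine hydroxylase, stood at 17.1 and 15.4 CPM in mutant and 227 and 232 CPM in rescue. Its log2 fold change was 3.82 (SE 0.28, adjusted p = 0.00104), and the rescue libraries lay above the 99.1 and 156 CPM of control. Further genes of this group were the larval cuticle protein Lcp1, which rose from 2025 and 1827 CPM to 16210 and 14814 CPM (log2 fold change 3.01, SE 0.28, adjusted p = 0.00172), the oligopeptide transporter yin, Reg-5 and GV1. Hsp26, Hsp68, Hsp70Bb and TotB, described below, complete the 10 higher genes. Each of the 10 genes kept its call when any single library was left out.

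On the lower side, Bace, an aspartic protease (chromosome 2L, 8494893 to 8496307), stood at 306 and 241 CPM in mutant and 3.30 and 2.02 CPM in rescue. The groups were far apart, and the rescue libraries lay somewhat above the 0.752 and 0.470 CPM of control. The log2 fold change of Bace was -6.68 (SE 0.36, adjusted p = 0.000516); the gene lies within the span of the neuropeptide gene Dh31 on the same strand, and how the authors' counting shared reads between them is not given in the sources used here. The trypsin gene alphaTry (chromosome 2R, 11344260 to 11345119) fell from 1018 and 917 CPM to 46.6 and 40.8 CPM, a log2 fold change of -4.47 (SE 0.26, adjusted p = 0.000581). The maltase Mal-A1 fell from 78.5 and 75.7 CPM to 1.37 and 2.84 CPM (log2 fold change -5.19, SE 0.36, adjusted p = 0.000792). The lysosomal alpha-mannosidase LManV fell by 3.81 on the log2 scale, the tetraspanins Tsp42Ec and Tsp42Eb by 4.13 and 2.79, the gap junction gene Inx7 by 2.65 and the cytochrome P450 Cyp4ac3 by 2.63, with adjusted p from 0.000792 to 0.00161. These 10 genes with the smallest p on the lower side, too, kept their calls when any single library was left out.

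**Figure D2:**
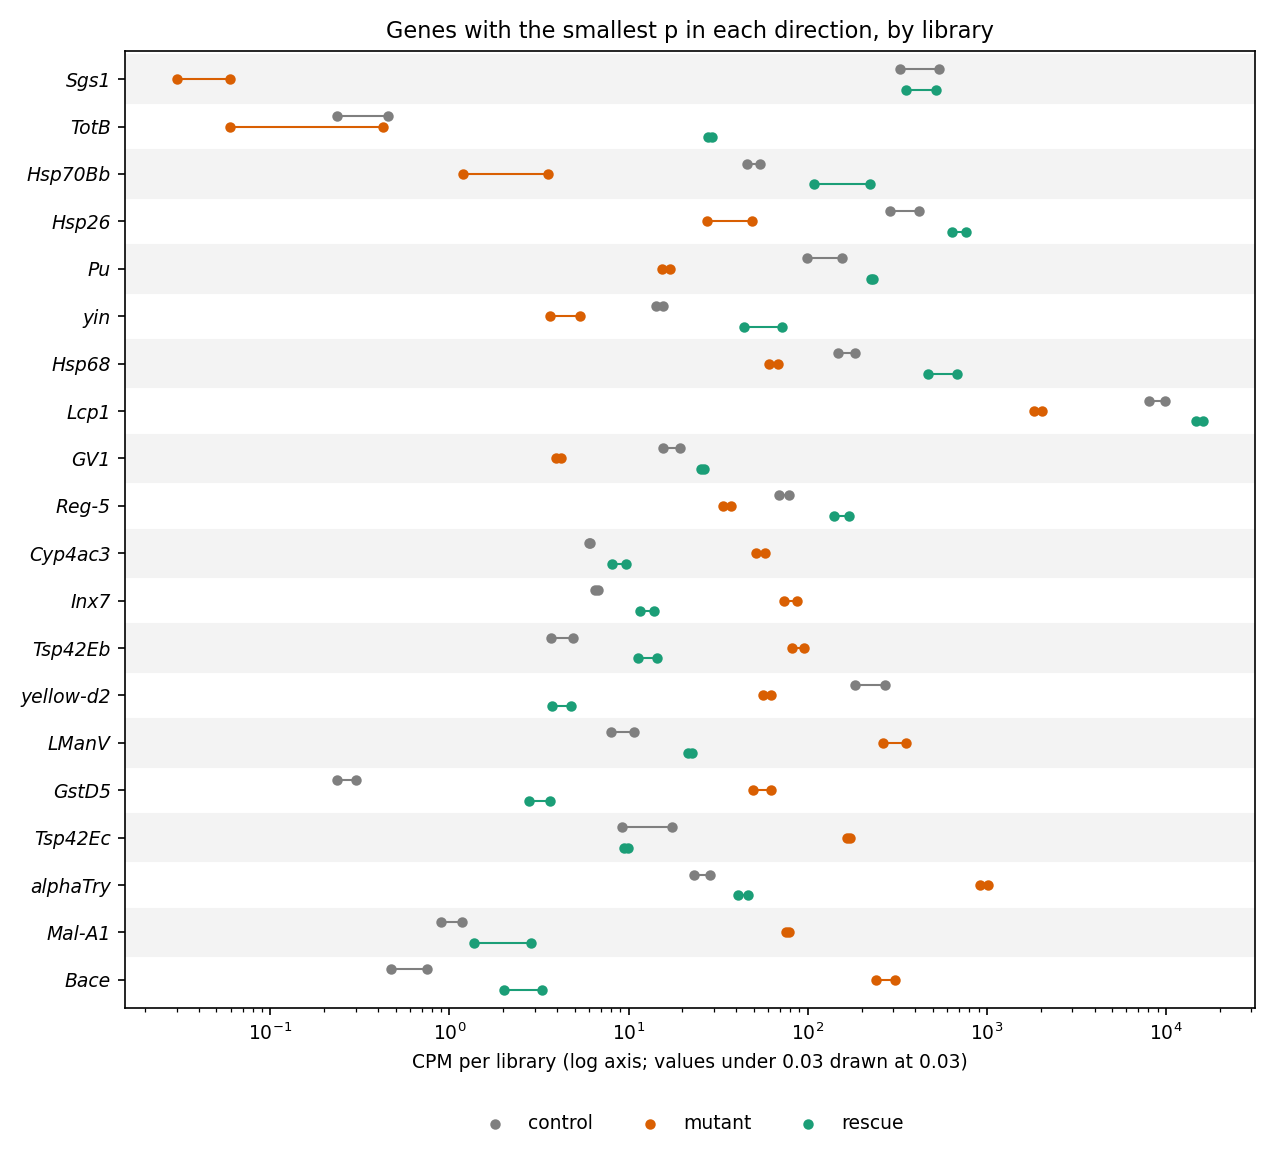
CPM in each of the 6 libraries (log axis) for the 10 genes with the smallest p in each direction; grey points are control, orange mutant and green rescue, and a line joins the 2 libraries of a group. In the 10 upper genes the rescue libraries lie above the mutant ones, as with Lcp1 at 16210 and 14814 against 2025 and 1827 CPM; in the 10 lower genes they lie below, and in yellow-d2 they also lie below control.

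By absolute amount, the called genes with the largest gains include Fbp1, Obp99b and genes of cuticle proteins. Most of the called genes with the largest losses encode gut proteases. Fbp1, which encodes the fat body receptor for larval serum proteins, rose from 501 and 398 CPM to 17064 and 21050 CPM (log2 fold change 5.40, SE 0.83, adjusted p = 0.0081). The control libraries stood apart from each other there, at 2271 and 13224 CPM. Obp99b, an odorant-binding protein, rose from 4241 and 2282 CPM to 8804 and 11837 CPM, and Lcp2 from 829 and 648 CPM to 3558 and 2601 CPM. Jon65Aiv, a serine protease of the gut, fell from 12549 and 16146 CPM to 1813 and 2463 CPM (log2 fold change -2.75, SE 0.32, adjusted p = 0.00333). The trypsin betaTry fell from 5567 and 3801 CPM to 635 and 311 CPM, and the fatty acid desaturase Desat1 from 2291 and 2587 CPM to 491 and 577 CPM. Jon65Aiii and Jon65Aiv, the trypsin genes, Lcp1 and Lcp2 have close paralogs among which the authors' counting could split reads. Without mutant 1 and also without mutant 2, Fbp1, Lcp2, betaTry, Jon65Aiii and Obp99b lost their calls, as did Obp99b and Jon65Aiii without rescue 1 and Obp99b and betaTry without rescue 2.

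Digestive proteases had the largest share of calls on the lower side among the lists. Of 35 tested digestive proteases 18 were called lower and none higher, and their median log2 fold change was -2.11. Together the list took 55676 and 61586 CPM in mutant, 20539 and 10126 CPM in rescue and 9352 and 8055 CPM in control, and rescue 1 lay above rescue 2. Without mutant 1, mutant 2, rescue 1 and rescue 2 in turn, 10, 11, 25 and 14 of them were called lower. Of 26 sugar-cleaving enzymes and lysozymes 7 were called lower and none higher (median -1.75); they include LysS, a lysozyme of the gut, at 1945 and 1431 CPM in mutant and 208 and 113 CPM in rescue. Lysozyme genes are near-identical copies, and LysC, LysD and LysE, with log2 fold changes of -4.31, -2.97 and -3.15, did not pass the test.

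Genes for lipid uptake in the gut lay lower as well, and genes of its acid-secreting copper cells had a low median but only 2 calls. Of 17 lipid genes 5 were called lower and 1 higher (median -0.89). The lipase mag stood at 1141 and 1938 CPM in mutant and 250 and 60.6 CPM in rescue, a log2 fold change of -3.31 (SE 0.71, adjusted p = 0.0235), and the sterol transporter Npc1b fell by 2.71. Of 14 copper cell genes, 2 were called lower (14.3%, against 8.47% of all genes) and none higher (median -0.95). In 8 of the 14 both rescue libraries lay below both mutant libraries and in 2 above, against 33.1 and 33.8% of all genes. The called gene lab, the homeotic regulator of these cells, stood at 3.63 and 9.43 CPM in mutant and 0.798 and 0.764 CPM in rescue. The other, Vha100-4, a proton pump subunit, stood at 110 and 190 CPM in mutant and 4.90 and 2.67 CPM in rescue (Vha100-4 overlaps cona). The copper-binding metallothioneins MtnA, MtnB, MtnC, MtnD and MtnE were not called (log2 fold changes -1.60, -0.25, 0.92, -1.31 and -1.97). Of 25 peptide hormone genes 6 were called lower and 3 higher (median -0.06); Tk, Dh31 and Mip, which gut endocrine cells make as well as neurons, had log2 fold changes of -1.81, -2.03 and -2.54. The value of Dh31 is uncertain, since Bace lies within its span on the same strand. The copper cell counts called lower were 2, 1, 6 and 1, and the lipid counts 1, 2, 6 and 3, without mutant 1, mutant 2, rescue 1 and rescue 2. Tk and Dh31 lost the call without mutant 1, mag, Npc1b and Mip without mutant 1 and also without mutant 2, lab without mutant 2 or rescue 2, and Mip without rescue 2; peptide hormones called lower numbered 0, 2, 4 and 3.

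Genes of the vacuolar proton pump lay lower by smaller amounts. Of 32 subunits of the vacuolar proton pump 11 were called lower and none higher, with a median of -0.80, and 27 had both rescue libraries below both mutant libraries, against 33.1% of all genes. Beyond Vha100-4, the shared subunit VhaSFD stood at 395 and 476 CPM in mutant and 215 and 207 CPM in rescue (log2 fold change -1.05, SE 0.22, adjusted p = 0.0235). The number called was 2, 1, 1 and 1 without mutant 1, mutant 2, rescue 1 and rescue 2. Of 44 nuclear genes of the respiratory chain 4 were called lower (9.09%, against 8.47% of all genes) and none higher, and 38 had both rescue libraries below both mutant libraries, against 33.1% of all genes (median -0.63); cytochrome c (Cyt-c-p) stood at 163 and 149 CPM in mutant and 71.1 and 47.9 CPM in rescue. DESeq2 called 15 of the 44 lower, the fit on only the mutant and rescue libraries 10, and no more than 1 was called when any single mutant or rescue library was left out. Of 15 tested features of the mitochondrial genome 3 were called lower, ND5, ND4L and trnG (median -0.94), with 0, 0, 0 and 1 called without mutant 1, mutant 2, rescue 1 and rescue 2 and ND5 also lost with RLE or upper-quartile factors, whereas the large ribosomal RNA had a log2 fold change of 0.84 and was not called. None of 90 cytosolic ribosomal protein genes was called in either direction (median 0.00), and DESeq2 called 1 higher. At an unadjusted p under 0.05, 1 was higher and 2 lower, against 1943 and 2009 of all 11866 genes tested.

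Cytochrome P450 genes and UDP-glycosyltransferases, enzymes of detoxification, lay lower as lists. The cytochrome P450 list holds genes with a Cyp symbol and so leaves out phm, sad and spok. These cytochrome P450 genes of ecdysteroid synthesis were called higher. Of 75 tested cytochrome P450 genes, 28 were called lower and 1 higher (median -1.08), and without mutant 1, mutant 2, rescue 1 and rescue 2 in turn 8, 17, 20 and 13 were called lower. The higher gene is Cyp18a1, which inactivates ecdysteroids, at 13.7 and 17.3 CPM in mutant and 28.0 and 26.2 CPM in rescue (log2 fold change 0.81, SE 0.21, adjusted p = 0.041), and it lost the call when any of those was left out. Cyp6a16 fell from 14.4 and 17.1 CPM to 1.48 and 1.04 CPM, back beside the 1.35 and 1.64 CPM of control. Of 31 UDP-glycosyltransferases 15 were called lower and 2 higher (median -1.50), the lower ones including CG5724, at 116 and 119 CPM in mutant and 10.4 and 9.88 CPM in rescue. Without the same 4 libraries in turn, 5, 6, 7 and 6 UDP-glycosyltransferases were called lower. Of 33 glutathione S-transferases 7 were called lower and none higher (median -0.48), and 1, 6, 5 and 3 were called lower without them; GstD5 had the smallest p among them. Without mutant 1 the transferases had a median of 0.00, with 2 called higher. Their summed level was 4183 and 2663 CPM in mutant and 3041 and 3369 CPM in rescue, so the groups overlapped.

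**Figure D3:**
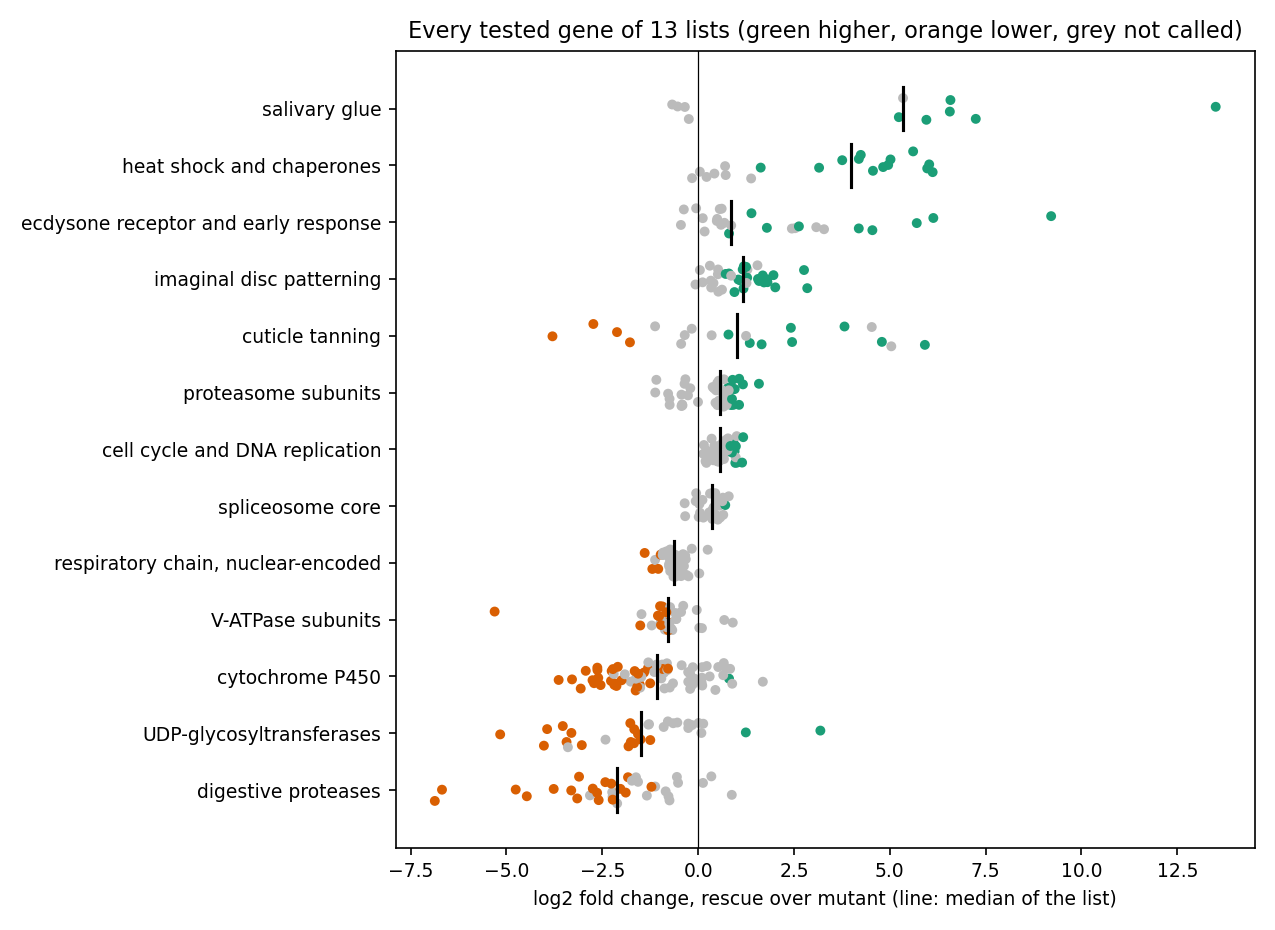
Log2 fold change of rescue over mutant for every tested gene of 13 lists, 1 point a gene, green where called higher, orange where called lower and grey where not called; the black line is the median of the list. Glue and heat shock genes extend to the right with medians of 5.35 and 3.98, digestive proteases and UDP-glycosyltransferases to the left with medians of -2.11 and -1.50, and spliceosome genes have a median of 0.37.

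Heat shock genes were the list with the largest share of calls on the higher side. Of 20 tested genes for heat shock proteins and chaperones 13 were called higher and none lower (median 3.98), and 8, 6, 13 and 13 were called higher without mutant 1, mutant 2, rescue 1 and rescue 2 in turn. Hsp26, a small heat shock protein (chromosome 3L, 9376418 to 9377427), stood at 49.1 and 27.3 CPM in mutant, 761 and 636 CPM in rescue and 290 and 418 CPM in control. Hsp70Bb stood at 3.57 and 1.19 CPM in mutant, 223 and 108 CPM in rescue and 45.8 and 54.4 CPM in control. In both genes the rescue libraries lay above control too, but that difference was not called (adjusted p = 0.189 and 0.121). All 6 tested Hsp70 genes named Hsp70Aa, Hsp70Ab, Hsp70Ba, Hsp70Bb, Hsp70Bbb and Hsp70Bc were called, and since they are near-identical copies their separate values are uncertain.

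The rise lay in Hsp70, Hsp68 and small heat shock genes. Hsp68 rose by 3.16 on the log2 scale, Hsp23 by 5.61, Hsp27 by 4.24 and l(2)efl by 1.63, and Hsp23 lost its call without mutant 1 and also without mutant 2. For Hsp23 the control libraries stood apart, at 209 and 877 CPM. The cochaperone gene DnaJ-1, at a log2 fold change of 1.38, and the heat-inducible RNA Hsromega, at 0.05, were not called. The constitutive chaperone Hsc70-4 had a log2 fold change of 0.22, Hsp83 of 0.72, the mitochondrial Hsp60A of -0.16 and the heat shock transcription factor Hsf of 0.42, and none of these 4 was called. Small heat shock genes are also known to be induced by ecdysone in Drosophila.

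Ecdysone is the steroid that times moulting and the onset of metamorphosis. Of 25 receptor and response genes 9 were called higher and none lower (median 0.86). Hr4, a nuclear receptor induced early by the hormone, stood at 0.665 and 1.02 CPM in mutant and 59.0 and 60.3 CPM in rescue. Its log2 fold change was 6.14 (SE 1.16, adjusted p = 0.0161), while the control libraries differed widely, at 1.35 and 21.6 CPM. The broad-complex gene br rose from 74.1 and 139 CPM to 680 and 642 CPM, and Eip74EF from 42.3 and 90.8 CPM to 222 and 240 CPM, both with control between the groups. ImpE2, Eip78C and ImpE3 rose by 9.21, 5.70 and 4.55, and like Hr4 they lost their calls without mutant 1 and also without mutant 2. The control libraries differed widely in ImpE2, Eip78C and ImpE3 too. They stood at 2.48 and 127 CPM, at 3.76 and 73.0 CPM, and at 4.96 and 19.9 CPM. The receptor genes EcR and usp were not called, with log2 fold changes of 0.69 and 0.50. Without mutant 1, mutant 2, rescue 1 and rescue 2 in turn, 2, 3, 8 and 6 genes of the list were called higher.

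Enzymes that make ecdysteroids in the prothoracic gland lay higher in part. Of 17 genes 5 were called higher and 1 lower (median 0.45). The hydroxylases phm and sad stood at 8.71 and 9.49 CPM and at 7.38 and 8.48 CPM in mutant, and at 37.5 and 41.6 CPM and 35.4 and 39.3 CPM in rescue. The log2 fold change was 2.12 for phm (SE 0.43, adjusted p = 0.0199) and 2.23 for sad (SE 0.42, adjusted p = 0.0153), and phm lost the call without mutant 1, mutant 2 or rescue 2 and sad without mutant 1 and also without mutant 2. spok, sro and ouib also rose, while ftz-f1, a nuclear receptor expressed after an ecdysone pulse, fell by 1.21. The number called higher was 0, 0, 4 and 1 without mutant 1, mutant 2, rescue 1 and rescue 2, and ftz-f1 was called in none of these. Ilp8, the relaxin-like hormone by which damaged or slowly growing discs delay metamorphosis, stood at 9.13 and 23.2 CPM in mutant and 0.912 and 0.164 CPM in rescue, beside 1.13 and 0.705 CPM in control. Its log2 fold change was -4.90 (SE 0.75, adjusted p = 0.0081), not called without mutant 2, and it overlaps CG7730 and CR45756.

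Salivary glue genes lay higher, while fat body genes went both ways. Of 11 glue-related genes 6 were called higher (median 5.35), and 3, 7, 6 and 6 without mutant 1, mutant 2, rescue 1 and rescue 2 in turn. Sgs7 and Sgs8 stood at 2.36 and 42.5 CPM and at 0.242 and 17.0 CPM in mutant, and at 2047 and 2202 CPM and 1205 and 1404 CPM in rescue. Mutant 2 lay above mutant 1 in each of these genes and in Sgs5, at 9.68 and 106 CPM. Sgs3 lay at 3.21 and 209 CPM in mutant and 4508 and 4105 CPM in rescue, but was not called (adjusted p = 0.0646). The early gland genes ng1, ng2, ng3 and Pig1 lay between -0.68 and -0.24 and were not called. sage, a salivary gland transcription factor, rose by 3.45 (SE 0.40, adjusted p = 0.00339). In the fat body, Fbp1 and the serum protein Lsp2 rose while 5 of 20 tested genes fell, among them Tsf1, which carries iron, and Yp2 (median -0.74). Without mutant 1, mutant 2, rescue 1 and rescue 2 in turn, 0, 1, 2 and 3 fat body genes were called higher and 2, 2, 4 and 1 lower. The serum protein genes Lsp1alpha, Lsp1beta and Lsp1gamma were not called.

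Regulators of the imaginal discs, the precursors of adult body parts, lay higher as a list. Of 35 genes that pattern the discs 20 were called higher and none lower, with a median of 1.16 and 34 above 0. Dll, which specifies distal limb, stood at 6.47 and 5.19 CPM in mutant, 41.9 and 42.1 CPM in rescue and 19.0 and 34.8 CPM in control. Its log2 fold change was 2.85 (SE 0.32, adjusted p = 0.00327), called also without each library. The proneural gene ato rose by 2.76, en by 2.01 and dac by 1.97. With mutant 1, mutant 2, rescue 1 and rescue 2 left out in turn, 1, 3, 8 and 5 were called. Of 36 cell cycle and replication genes all lay above 0 (median 0.56), and 9 were called higher, among them Cdk1, CycE, stg and PCNA, but 1, 0, 0 and 0 without those 4 libraries. Of 48 proteasome genes 11 were called higher and none lower (median 0.57), and none when any of the 4 was left out.

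Tanning enzymes, which harden and darken the cuticle, went both ways. Of 20 genes 8 were called higher and 4 lower (median 1.02). ple, tyrosine hydroxylase, rose from 7.38 and 7.70 CPM to 283 and 628 CPM (log2 fold change 5.92, SE 1.13, adjusted p = 0.0167), and Ddc, dopa decarboxylase, from 27.9 and 9.97 CPM to 543 and 509 CPM (log2 fold change 4.79, SE 0.50, adjusted p = 0.00226). In Ddc the rescue libraries exceeded the 80.0 and 88.1 CPM of control, a difference that was not called (adjusted p = 0.0562). Among the lower genes were Dat, which acetylates dopamine, t, which splits beta-alanyl dopamine, and yellow-f2. Without mutant 1, mutant 2, rescue 1 and rescue 2 in turn, 2, 2, 4 and 4 were called higher, and 3, 4, 4 and 4 lower. ple lost its call without mutant 1 and also without mutant 2 and Dat without mutant 1, while Ddc, t and yellow-f2 kept theirs.

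Cuticle proteins also split. Of 44 tested genes of the Cpr family of chitin-binding cuticle proteins, 11 were called higher and 3 lower (median 0.41), with 2, 5, 8 and 9 higher without each of the same libraries. Cpr49Ac rose from 92.1 and 171 CPM to 2505 and 2881 CPM (log2 fold change 4.35, SE 0.53, adjusted p = 0.00376), while its neighbours on chromosome 2R Cpr49Ad and Cpr49Af fell. Cpr49Ab had 0 counts in mutant and 80 in rescue, at least 24.7-fold higher against a floor of 3 counts over the group. It lost the call without mutant 1, mutant 2 or rescue 1, Cpr49Ad when any of the 4 was left out, Cpr49Af without mutant 1 or rescue 2, and Cpr49Ac without mutant 1. The moulting chitinases Cht5 and Cht10 rose by 2.41 and 3.38, Cht5 not without mutant 1.

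**Figure D4:**
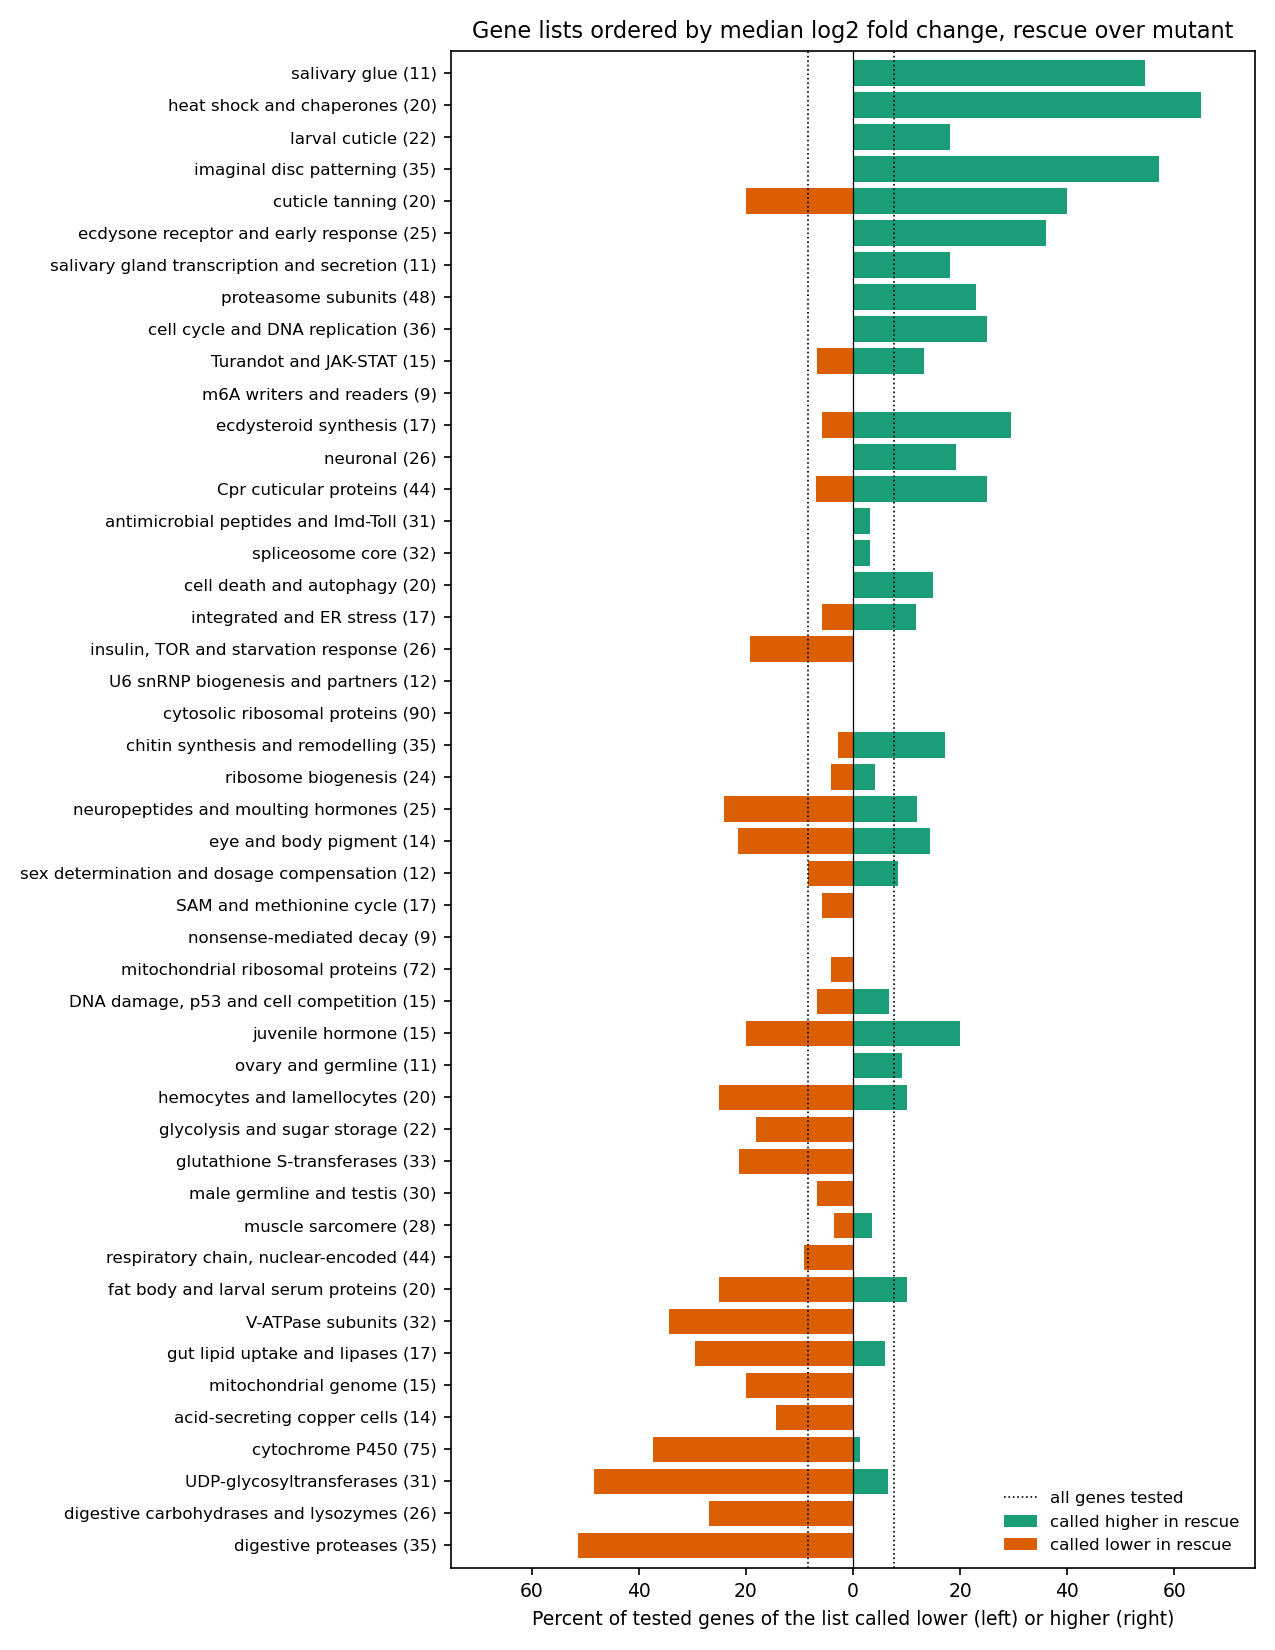
Percent of the tested genes of each gene list called higher (green, right) or lower (orange, left) in rescue than in mutant, with the number tested in brackets and the lists ordered by median log2 fold change. Dotted lines mark the shares over all genes tested, 8.47% lower and 7.61% higher; heat shock genes reach furthest right (13 of 20) and digestive proteases furthest left (18 of 35).

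Summed levels of the marker lists did not overlap between mutant and rescue for muscle, blood cells and testis, and overlapped for neurons. Muscle genes took 44043 and 45429 CPM in mutant, 28974 and 26609 CPM in rescue and 108178 and 64972 CPM in control. Of 28 tested, 1 was called higher and 1 lower (median -0.57), 3.57% each, against 7.61 and 8.47% of all genes. In 20 of these 28 both rescue libraries lay below both mutant libraries and in 3 above, against 33.1 and 33.8% of all genes. Neuronal genes summed to 645 and 829 CPM in mutant and 762 and 880 CPM in rescue, so the groups overlapped, and 5 of 26 were called higher, among them elav and nSyb. Blood cell genes summed to 2044 and 2742 CPM in mutant and 1550 and 1462 CPM in rescue, with Hml, Pxn, Sr-CI, Col4a1 and eater called lower and NimC2 and PPO3 higher. Of the neuronal and blood cell genes 0 and 0 were called without mutant 1, while 2 neuronal genes and 0 blood cell genes were called without mutant 2. Testis genes summed to 376 and 397 CPM in mutant, 253 and 260 CPM in rescue and 325 and 213 CPM in control. Of 30 tested, 2 were called lower (6.67%, against 8.47% of all genes) and none higher (median -0.54). Both rescue libraries lay below both mutant libraries in 20 of these 30 and above in 3. Of the ovary list, bcd, osk, otu and pgc had too few counts to be tested. The dosage compensation RNAs roX1 and roX2 were not called. The part of tissue proportions, larval age and sex in the gene groups above was not tested.

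Fewer genes were called between rescue and control by the same test, 42 higher (0.354%) and 34 lower (0.287%) in rescue. This comparison shares the rescue libraries with the main one. The smaller count does not by itself show a match, since the adjusted p depends on all genes of a comparison. Against control, Ddc at 2.64 (SE 0.45) had an adjusted p of 0.0562. Against mutant, Cpr12A at 3.55 (SE 0.60) had 0.0115. The control libraries also correlated less with each other (0.953) than the mutant (0.971) or rescue libraries (0.973). In 13 of the named genes the rescue differed from both mutant and control. The white gene w (chromosome X, 2790599 to 2796466), an eye pigment transporter, stood at 31.3 and 21.7 CPM in mutant, 36.8 and 17.8 CPM in control and 211 and 282 CPM in rescue. Mutant and control overlapped and both rescue libraries lay far above them, by 3.22 against mutant (SE 0.40, adjusted p = 0.00398) and 3.18 against control (SE 0.40, adjusted p = 0.0291). A copy of w is the visible marker of many Drosophila transgenes; the labels name no marker for [U6+], and the origin of these reads was not tested. The gene overlaps kirre, and its call against mutant held without each library. The pterin transporter partner bw rose by 4.10 against mutant, while st and v, of the brown pigment branch, fell by 1.93 and 1.45. None of them was called without mutant 1, and bw also lost the call without mutant 2, st without mutant 2 or rescue 2, and v without rescue 2.

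Of 15 Turandot and JAK-STAT genes, which encode secreted stress peptides and the pathway upstream of them, 2 were called higher and 1 lower than in mutant larvae (median 0.55), and both higher ones also exceeded control. TotB (chromosome 3R, 20873938 to 20874522) stood at 0.423 and 0.0597 CPM in mutant, 0.451 and 0.235 CPM in control and 29.3 and 27.8 CPM in rescue (log2 fold change against mutant 6.85, SE 0.57, adjusted p = 0.0015, and against control 6.39, adjusted p = 0.00894). TotC stood at 35.0 and 5.37 CPM in mutant, 0.451 and 0.881 CPM in control and 396 and 200 CPM in rescue, so that mutant lay between the others. The JAK-STAT ligand upd1 fell by 1.41, a call lost when any of the 4 libraries was left out, and TotA, at 407 and 217 CPM in mutant and 1211 and 933 CPM in rescue, was not called (adjusted p = 0.0806). PPO3, a prophenoloxidase of lamellocytes, rose from 3.45 and 3.64 CPM to 28.7 and 15.1 CPM, with control at 2.56 and 1.76 CPM, and lost the call without mutant 1 and also without mutant 2, whereas TotB and TotC kept theirs. Its companion lamellocyte gene atilla was not called (log2 fold change 0.14). Of 31 antimicrobial peptide and Imd-Toll genes Drsl5 was called higher and none lower, on 3 counts in mutant and 1836 in rescue (count ratio 568, exact 95% interval 194 to 2756), a call lost without mutant 1, mutant 2 or rescue 2. The control libraries differed widely in Drsl5, at 3.16 and 216 CPM.

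Some genes lay below both groups. yellow-d2 (chromosome 2R, 23381197 to 23382591) stood at 56.1 and 62.5 CPM in mutant, 184 and 271 CPM in control and 3.76 and 4.75 CPM in rescue. The 3 groups did not overlap, and the log2 fold change was -3.80 against mutant (SE 0.28, adjusted p = 0.00104) and -5.74 against control (SE 0.31, adjusted p = 0.00146). yellow-f2 stood at 22.9 and 13.9 CPM in mutant, 16.8 and 13.97 CPM in control and 2.79 and 2.73 CPM in rescue. Cpr49Af followed at 394 and 240 CPM, 403 and 346 CPM and 89.2 and 60.1 CPM. In GstD5, Tsp42Eb and CG15784, by contrast, the rescue lay between mutant and control: CG15784 stood at 3580 and 4113 CPM in mutant, 705 and 607 CPM in rescue and 199 and 195 CPM in control. Hsp68 and yin lay lowest in mutant and highest in rescue.

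**Figure D5:**
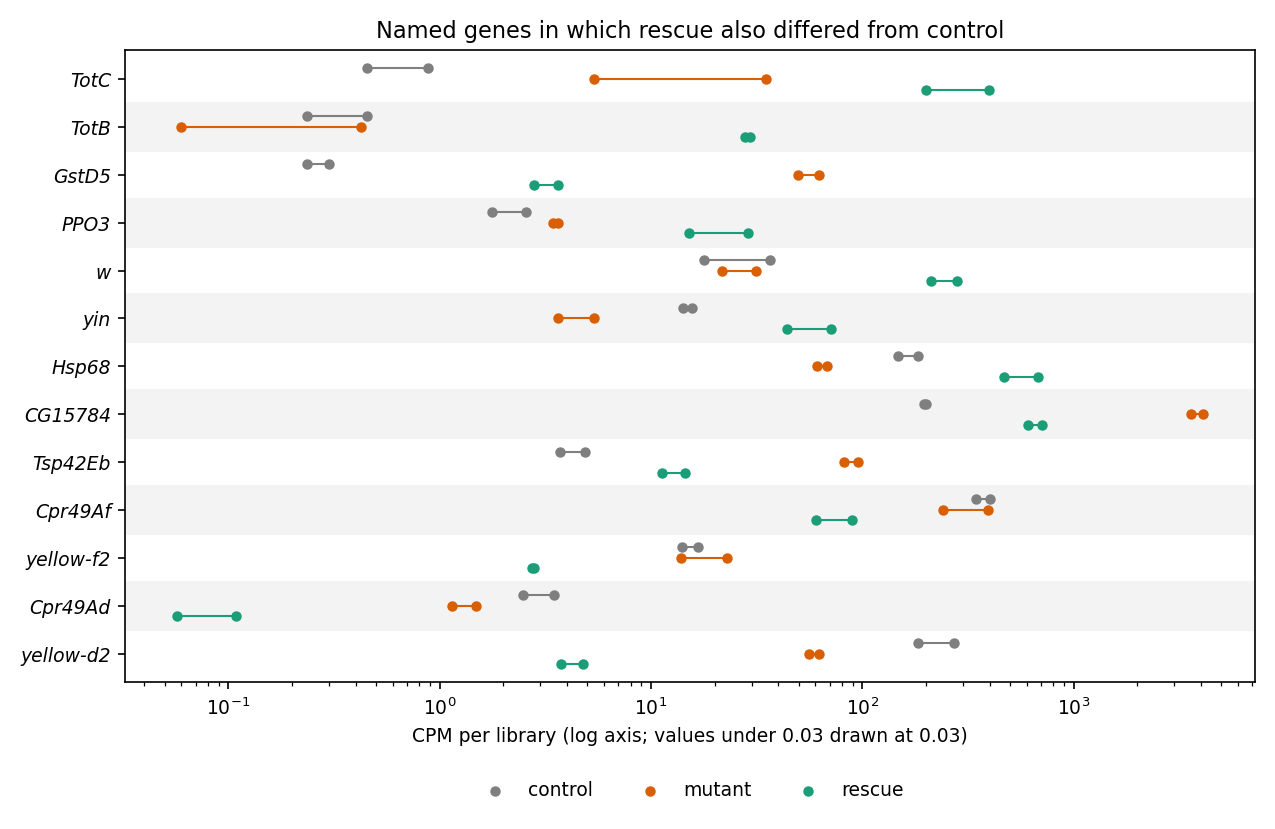
CPM in each library (log axis) for the 13 named genes in which rescue differed from mutant and from control at an adjusted p under 0.05; grey is control, orange mutant and green rescue. In w, TotB, TotC, PPO3, yin and Hsp68 the rescue libraries are the highest, in yellow-d2, yellow-f2, Cpr49Ad and Cpr49Af the lowest, and in GstD5, CG15784 and Tsp42Eb they lie between the other groups.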

How the data were processed

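Polyadenylated RNA of whole larvae was measured in 6 libraries, 2 per genotype, grouped by the submitters' genotype labels. Raw read counts for each gene were deposited by the authors, with positions and strands per the file headers, and a deposited table by the authors holds the same genes as FPKM, which was not used for tests. Not given in the sources used here are the aligner, counting tool, strand setting and genome build; 99.5% of the gene identifiers found in the RefSeq table share their start with Release 6, so positions are printed as deposited. No per-sample column was left unmapped (0). All 6 libraries entered 1 edgeR 4.0.16 quasi-likelihood fit (R 4.3.3) with TMM factors, no block, and genes passing filterByExpr at a minimum count of 10. The rescue minus mutant contrast was adjusted by Benjamini-Hochberg over all 11866 genes and called at 0.05; the same fit gave rescue minus control. The common dispersion was 0.0721, with 3 residual and 4.26 prior degrees of freedom. Levels are CPM on TMM-scaled libraries, log2 fold changes use edgeR's prior count of 0.125, and SE is the absolute log2 fold change over the square root of F. A gene with 0 counts in a group was set against a floor of 3 counts over the group, and a gene with 1 to 3 counts was given as a count ratio with its exact 95% interval; both cover counting error only. On simulated data with 200 changed genes among 11866 in each of 20 simulations of this comparison, the test called 4.4% of the 2-fold and 66.4% of the 4-fold changes, with 10.7% false calls. Within groups the libraries differed by more than counting noise (chi-square per degree of freedom 109 for control, 61.9 for mutant, 56.9 for rescue) and were kept as replicates. Alternatives were RLE and upper-quartile factors, the mitochondrial genome left out, no filter, the 4 libraries alone, a replicate block, DESeq2 1.42.0, and each library left out.

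Genes named are the 10 with the smallest p in each direction among called genes changed at least 2-fold with a symbol other than a CG or CR number, the 8 with the largest difference in mean CPM, up to 4 called genes of each list per direction (all of a list with 5 or fewer), and CG7544, the U6 genes and Sam-S; other genes are named as members of a list, after their values were seen. The members and the 49 gene lists (898 of 926 names found, further families by symbol pattern) were chosen with earlier results of these data known, and 2 cyclophilins were dropped from the cytochrome P450 list after their values were seen. Lists are described by counts and medians beside those of all genes, with no test. Introns were counted on the Ensembl canonical transcript.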

Additional observations from a re-analysis of the deposited data

How the results depend on the processing

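The 903 higher and 1005 lower calls stayed within 1.5 times under RLE factors, upper-quartile factors, the mitochondrial genome left out, no filter, only the mutant and rescue libraries (1228 and 1332) and DESeq2 (1279 and 1455), and at least 96.2% of the called genes were called again under each of these. Leaving out 1 library in turn gave 116 to 1203 higher and 284 to 1304 lower calls; the low values came without mutant 1 and the high ones without a control library. Of the called genes, 20.1% were called again without mutant 1, 30.9% without mutant 2, 44.1% without rescue 1 and 32.2% without rescue 2, where a lone library stands for its group and is assumed to vary like the other groups. Of 183 named results, 123, 99, 69 and 87 no longer passed the threshold in these 4 settings, 19 under the replicate block (SmD1, Cyp18a1 and upd1 among them), and at most 3 in any other setting. CG7544, not called in any setting, took log2 fold changes from -0.88 to 0.33 when 1 library was left out, with 0.33 without mutant 1 and 0.12 without rescue 1. With a replicate block 825 genes were called higher and 942 lower; same-numbered mutant and rescue libraries deviated from their group means with a correlation of 0.0164, so the numbers do not show a pairing. The share of introns by splice-site sequence was not run. In the simulations, with 200 changed genes, 4.4% of 2-fold changes were called. The data held 903 higher and 1005 lower calls, which sets another cutoff, so this share cannot be carried over to them.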

Other observations

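Some sugar storage and hormone genes also differed between rescue and mutant. Of 22 genes of glycolysis and sugar storage 4 were called lower in rescue and 0 higher (median log2 fold change -0.44): Gpdh, which links glycolysis to lipid synthesis, stood at 629 and 658 CPM in mutant and 126 and 128 CPM in rescue, below the 320 and 281 CPM of control, and Gpo-1, Tps1 and Pgm fell by 2.22, 1.31 and 1.11 on the log2 scale. Without mutant 1, mutant 2, rescue 1 and rescue 2 in turn, 2, 3, 2 and 2 genes of this list were called. Of 26 insulin, TOR and starvation genes 5 were called lower and 0 higher, among them tobi, a glucosidase gene regulated by diet, at 47.0 and 111 CPM in mutant and 3.59 and 2.84 CPM in rescue; 2, 2, 3 and 3 were called lower without the same libraries. The median of those 26 insulin, TOR and starvation genes was 0.18, with 14 above 0, and Ilp8, described above, is among the 5 called lower. Of 15 juvenile hormone genes 3 were called lower, the epoxide hydrolases Jheh1 and Jheh3 and JhI-26, and 3 higher, CG2016, the esterase Jhe and the response gene Kr-h1. Kr-h1 stood at 7.74 and 8.18 CPM in mutant and 15.1 and 16.05 CPM in rescue. The number of juvenile hormone genes called higher was 1 without any single mutant or rescue library.

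Over all genes tested, 7.61% were called higher and 8.47% lower, and the shares below stand beside these. Of 263 tested noncoding RNA genes 23 were called higher and 9 lower, 8.75 and 3.42%. Of 1373 genes with a mean over 100 CPM, 8.67% were called higher and 15.2% lower, and of 884 genes with a mean under 1 CPM 3.62 and 2.26%. The X chromosome held 6.65% called higher and 6.59% lower of 1926 genes, and arm 2L 6.92 and 9.61% of 2153. These shares carry no test.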
